A study of Homo sapiens with 24 samples.

Results

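Small nucleolar RNAs (snoRNAs) were 176 of the 18274 genes measured on these arrays. The members are the single-symbol genes of the platform annotation whose names begin with SNORD or SNORA, with host genes (names ending in HG) left out. They comprised 115 SNORD genes, of the box C/D class, and 61 SNORA genes, of the box H/ACA class. Of the SNORD genes, 46 are copies from imprinted clusters: 2 SNORD113, 4 SNORD114, 20 SNORD115 and 20 SNORD116. The other 69 box C/D genes are called box C/D here, and the copies are called cluster snoRNAs. A further 73 probe sets that name a snoRNA together with other genes were not used.

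The cells were Huh7.5.1, a human hepatoma line, and every sample title includes the word novirus. They received silymarin, a milk thistle extract, or its solvent DMSO. The 24 arrays fall into 6 labelled groups, with 4 DMSO and 4 silymarin arrays at 4 h, 5 and 3 at 8 h, and 5 and 3 at 24 h. The dose was not stated, and separate cultures are not mentioned, so the p-values below measure only the spread between these samples.

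Box C/D snoRNAs guide ribose methylation and box H/ACA snoRNAs guide pseudouridylation, mainly of ribosomal RNA in the nucleolus. Most human snoRNAs are not transcribed on their own but are cut out of introns of a host gene, and many hosts encode ribosomal proteins, nucleolar proteins or translation factors, or are non-coding RNAs such as GAS5. The SNORD115 and SNORD116 copies come from a paternally expressed transcript best known from brain, and the SNORD113 and SNORD114 copies from a maternally expressed one.

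Of the 130 snoRNAs outside the imprinted clusters, 99 lie within a coding gene, 27 within a long non-coding gene, 2 within a transcribed pseudogene and 2 within no other gene of the RefSeq table. There are 89 such containing genes, and 20 of them encode ribosomal proteins and hold 34 snoRNAs. Many hosts belong to the TOP class, whose transcripts start with C followed by an unbroken run of pyrimidines. A run of C at the first transcribed base and at least 4 further C or T was searched on the transcribed strand at the annotated start. Of the containing genes 73 had a start in the table, among them 12 of the ribosomal protein genes. The run was found at 25 of 93 start sites of the containing genes (26.88%), against 4.07% of all 35116 start sites in the table. Among start sites of ribosomal protein genes that contain a snoRNA it was found at 10 of 12 (83.33%), and among the other containing genes at 15 of 81 (18.52%). A start site in this table can differ from the one used in these cells. The 60 bases around the start of 5 containing genes are shown because their snoRNAs carry the co-variation described below, from tightly shared to unshared. Each line holds 45 bases before the start and 15 from it, from RefSeq on build GRCh38.p14, and capitals mark the pyrimidine run where one was found. RPL13A lies at chr19:49487563-49487622 on the plus strand, RABGGTB at chr1:75786211-75786270 on the plus strand, GAS5 at chr1:173869031-173869090 on the minus strand, NCL at chr2:231464470-231464529 on the minus strand and TBRG4 at chr7:45111683-45111742 on the minus strand.
RPL13A: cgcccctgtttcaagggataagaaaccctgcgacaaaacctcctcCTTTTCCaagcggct
RABGGTB: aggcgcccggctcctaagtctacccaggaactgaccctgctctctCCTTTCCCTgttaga
GAS5: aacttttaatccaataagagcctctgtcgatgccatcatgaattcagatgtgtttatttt
NCL: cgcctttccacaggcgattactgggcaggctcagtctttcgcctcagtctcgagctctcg
TBRG4: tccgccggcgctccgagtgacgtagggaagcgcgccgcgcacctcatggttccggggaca
RPL13A, a ribosomal protein gene, had a run of 7 pyrimidines and RABGGTB, a subunit gene of a prenyltransferase, a run of 9. At the annotated start no run was found for GAS5, a non-coding host, for NCL, which encodes nucleolin, or for TBRG4. This does not show that the transcripts made in these cells lack one.

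The array medians lay between 7.04 and 7.18 on the log2 scale. All 9 measured hepatocyte markers were bright (11.44 to 13.34), while the 4 endothelial markers lay between 5.36 and 6.89 and the 4 fibroblast markers between 3.82 and 7.77. Of the 4 leukocyte markers measured, 3 were dim and lysozyme was at 12.29. DDIT4, a stress gene, took separate values that cut across the labels. It lay between 9.67 and 10.34 on 10 arrays and between 7.50 and 8.35 on the other 14. High values occurred on 2 of 4 DMSO and 1 of 4 silymarin arrays at 4 h, 3 of 5 and 2 of 3 at 8 h, and 1 of 5 and 1 of 3 at 24 h. The part of this uneven state in the comparisons below was not tested.

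Signals of the snoRNAs spanned nearly the whole range of the array. The mean log2 value over 24 arrays ran from 2.46 to 12.70, with a median of 7.0, against a median of 7.90 over all genes. Box C/D snoRNAs had a median of 8.74, box H/ACA snoRNAs 7.21 and cluster snoRNAs 3.03. Against the 40th percentile of gene means, a log2 value of 7.22, 50 of 69 box C/D, 30 of 61 box H/ACA and 0 of 46 cluster snoRNAs lay above, and these 80 are called bright. SNORD54 at 7.31 was the last above the threshold and SNORD77 at 7.22 the first below it. Probe sets differ in how well they bind, and short RNAs offer few probes, so the order is one of signals and not of RNA abundance. The labels give an RNeasy Mini column extraction, which retains RNAs as short as most snoRNAs incompletely, and its part in the spread described below was not tested. Probes in an intron cannot separate a mature snoRNA from its precursor.

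**Figure D1:**
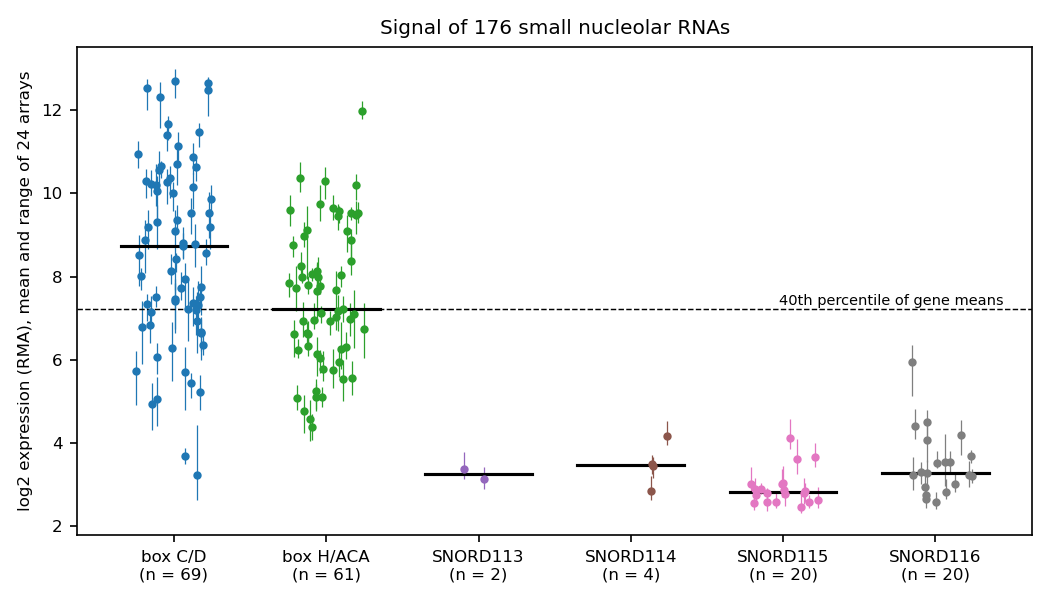
Mean log2 expression of each of the 176 snoRNAs (points) with the range over 24 arrays (vertical lines), by class; black bars are class medians and the dashed line is the 40th percentile of gene means. Box C/D and box H/ACA snoRNAs span most of the scale, while all 46 cluster snoRNAs lie below the line.

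Of the 8 highest signals 7 belonged to box C/D snoRNAs. SNORD33, from an intron of RPL13A, had a mean of 12.70 ± 0.19 (SD, n = 24) and ranged from 12.30 to 12.99. SNORD57, within NOP56, a core protein gene of box C/D particles, had 12.66 ± 0.08, the steadiest of the brightest members. SNORD41, within the import factor gene TNPO2, had 12.54 ± 0.20. SNORD13, which is transcribed from its own promoter and acts in 18S rRNA acetylation, had 12.49 ± 0.25, and its copy SNORD13P3 had 12.33 ± 0.29. These copies are nearly identical in sequence, so the probe sets may read each other's RNA. The brightest box H/ACA member was SNORA71D of the non-coding host SNHG17, at 11.98 ± 0.14, followed among all members by SNORD45A of RABGGTB at 11.66 and SNORD74 of GAS5 at 11.47. By mean signal these 8 stood between the 95.72th percentile of genes (SNORD74) and the 99.54th (SNORD33).

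The cluster snoRNAs filled the bottom of the scale. Their means lay between 2.46 and 5.93, and SNORD115-4, at 2.46, had the lowest mean of all 18274 genes. The next 4 lowest snoRNAs were SNORD115-37, SNORD115-3, SNORD116-18 and SNORD115-8. The highest cluster member, SNORD116-15, averaged 5.93 ± 0.23 and ranged from 5.12 (DMSO at 24 h, replicate 2) to 6.35 (silymarin at 8 h, replicate 3), which is the 19.82th percentile of gene means. The median mean was 2.81 for SNORD115 copies, 3.28 for SNORD116, 3.47 for SNORD114 and 3.25 for SNORD113. The copies are near-identical repeats and single copies cannot be separated with confidence. The neuronal markers RBFOX3 and SNAP25 were the lowest and highest of 4, at 6.91 and 8.94.

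Over the 24 arrays the snoRNAs were more variable than most genes. The median SD was 0.18, against 0.13 over all genes, and 63 of 176 members exceeded the 90th percentile of gene SDs, a bound that 1828 of all 18274 genes exceeded. By class, 39 of 69 box C/D, 19 of 61 box H/ACA and 5 of 46 cluster snoRNAs did so. The labelled groups accounted for a median of 24.87% of a snoRNA's variance and 23.17% over all genes. Even where labels make no difference, 6 group means fitted to 24 arrays take up some of the variance. Most of the spread was therefore between arrays that carry the same label.

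The most variable member was SNORA22, a box H/ACA guide, with an SD of 0.47 and a range from 7.94 to 9.70. Its values were 8.90, 9.62, 9.63 and 9.48 in DMSO at 4 h, 9.70, 9.23, 8.80, 9.14 and 9.19 in DMSO at 8 h, and 7.94, 8.46, 9.50, 9.43 and 9.11 in DMSO at 24 h. In silymarin they were 9.05, 9.43, 9.47 and 8.91 at 4 h, 9.25, 9.19 and 9.29 at 8 h, and 9.27, 8.02 and 8.56 at 24 h. All values below 8.60 came from 24 h, from arrays of both treatments, and the groups overlap there. Its closest partners among all genes were the spliceosomal RNAs RNU5A-1 (r = 0.92 over 24 arrays) and RNU4-1 (r = 0.92), pairs named after their values were seen. Among the other spliceosomal and related U RNAs, RNU5B-1 (0.68), RNU4ATAC (0.65) and RNU4-2 (0.60) also ran with SNORA22. The rest had r from -0.62 (RNU6ATAC) to 0.30 (RNU5D-1), so these RNAs did not follow SNORA22 as a class. Next in SD came SNORD20 (0.46), SNORD82 (0.41), SNORD13P1 (0.40), SNORD77 (0.40), SNORD14E (0.38), SNORD59A (0.36), SNORD116-6 (0.36), SNORD58A (0.35) and SNORD42A (0.34). In SNORD14E, of the chaperone gene HSPA8, 1 array made much of the spread: DMSO at 8 h replicate 4 had 7.69, while the other 23 lay between 8.61 and 9.60.

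The bright snoRNAs moved up and down together from array to array. The median deviation of the 80 bright members from their own means was -0.28 in DMSO at 24 h replicate 1, where only 2 of 80 lay above their mean and 21 had their lowest value of all arrays. It was -0.18 in DMSO at 8 h replicate 4, which held the lowest value of 18, and -0.16 in silymarin at 24 h replicate 2. It was highest, 0.22, in silymarin at 8 h replicate 2, where 75 of 80 lay above their mean and 26 had their highest value. Averaged within groups the deviation was 0.07 ± 0.06 (SD, n = 4) for DMSO against 0.04 ± 0.11 (SD, n = 4) for silymarin at 4 h, -0.02 ± 0.12 (SD, n = 5) and 0.08 ± 0.13 (SD, n = 3) at 8 h, and -0.07 ± 0.14 (SD, n = 5) and -0.06 ± 0.09 (SD, n = 3) at 24 h. The ranges of all 6 groups overlap. The deviation ran from -0.18 to 0.14 on the 10 arrays with high DDIT4 and from -0.28 to 0.22 on the others, so the lowest and highest arrays were both among those with low DDIT4.

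This common level was set against 7 other measures of the arrays, with permutation tests of 100000 resamples and Benjamini-Hochberg adjustment over the 7. It ran opposite to the median deviation of all genes (r = -0.56, adjusted p = 0.0325; rho = -0.53, adjusted p = 0.0277), and r was -0.65 without the 2 farthest arrays. It ran with the median deviation of 16 small Cajal body RNAs, which guide modification of spliceosomal RNAs (r = 0.52, adjusted p = 0.034; rho = 0.62, adjusted p = 0.012; r = 0.58 without the 2 farthest). With NCL r was 0.46 (permutation adjusted p = 0.0586) and rho 0.49 (permutation adjusted p = 0.0399). For the containing genes r was 0.28 (permutation adjusted p = 0.216) and 0.46 within groups, and for 14 spliceosomal and related U RNAs 0.23 (permutation adjusted p = 0.285). For the array's median r was -0.31 (permutation adjusted p = 0.199), and for the interquartile spread of its gene deviations -0.34 (permutation adjusted p = 0.182). Whether any step of RNA recovery, hybridisation or normalization moves with this level was not tested, nor was any other cause.

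Over all pairs of the 176 members the median Pearson r was 0.13, against 0.01 over pairs of all genes. Among the 80 bright members it was 0.36, against 0.02 over all genes above the same threshold. It was 0.48 among bright box C/D, 0.24 among bright box H/ACA and 0.08 among cluster snoRNAs. After each group's mean was taken away the 80 bright members still had a median r of 0.34. The first principal component held 47.8% of the variance of the 80 and had the same sign for 76 of them. In all genes above the threshold the first component held 33.0%. These points share array, depth of signal and normalization, and are given as a description.

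**Figure D2:**
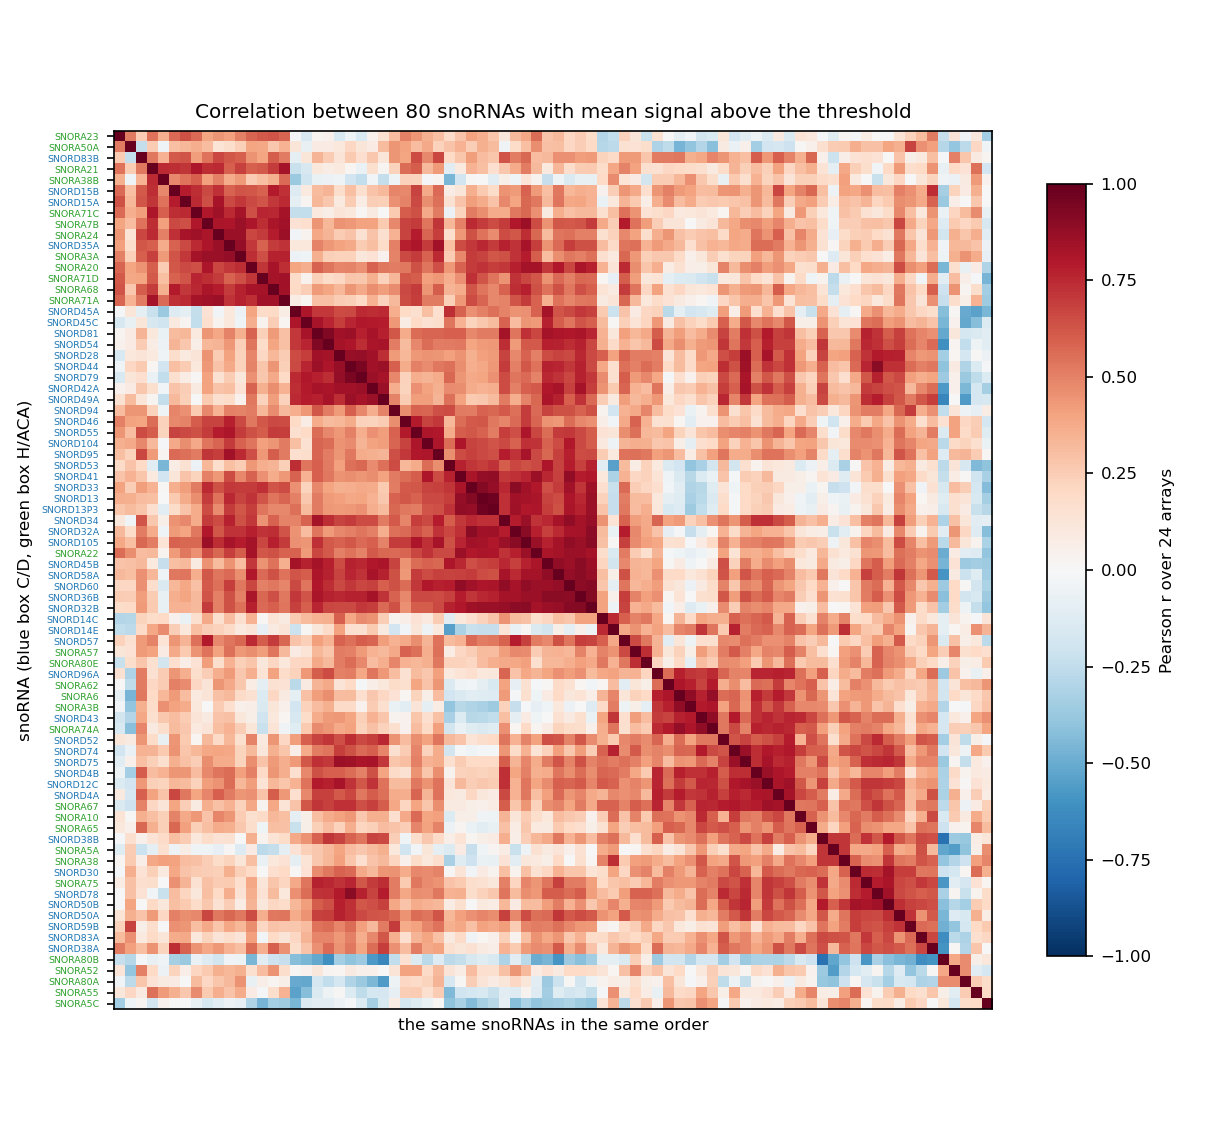
Pearson correlation over 24 arrays between the 80 bright snoRNAs, ordered by average-linkage clustering, with box C/D names in blue and box H/ACA names in green. Most pairs are above 0 (87.8%), with blocks of box C/D names around SNORD44 and SNORD79 and around SNORD13 and SNORD33, and SNORA80B runs against most others.

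Pairs within 1 containing gene were closer than other pairs. The 47 such pairs among bright members had a median r of 0.75, and 3113 pairs from different genes had 0.36. The 3 SNORD45 members of RABGGTB had pairwise r from 0.77 to 0.83, the 4 members of RPL13A (SNORD32A, SNORD33, SNORD34, SNORD35A) from 0.71 to 0.90, and the 3 SNORA71 members of SNHG17 from 0.76 to 0.84. SNORD59A and SNORD59B of the ATP synthase gene ATP5F1B had 0.76, and SNORD15A and SNORD15B of RPS3 had 0.79. Not all pairs within a containing gene were close. The 3 SNORA5 members of TBRG4 had r from -0.18 to 0.46, SNORA3A and SNORA3B of RPL27A had 0.05, and SNORA51 and SNORD57 of NOP56 had 0.11. The 40 cluster members of SNHG14 had a median r of 0.07. Members of one family can share sequence, as the SNORD45, SNORA71 and SNORA5 copies do in part, and cross-hybridisation between them was not tested.

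Of the 5 closest pairs of all, only SNORD44 with SNORD79 shared a containing gene. Such pairs are few, since outside the imprinted clusters 66 pairs shared a containing gene and 8319 did not. No containing gene was found for SNORD13 or SNORD32B. SNORD13 and SNORD13P3 had r = 0.97, SNORD44 and SNORD79 of GAS5 0.94, SNORD54 of RPS20 and SNORD81 of GAS5 0.93, SNORA27 of RPL21 and SNORA6 of RPSA 0.92, and SNORD32B with SNORD36B of RPL7A 0.92. SNORD13 also ran with SNORD33 at 0.92, although it has its own promoter. Against the rest ran SNORA80B, within the ornithine decarboxylase gene ODC1, which had r = -0.55 with the median of the other snoRNAs, with its highest values, 8.47 and 8.28, in DMSO at 8 h replicate 3 and DMSO at 24 h replicate 2.

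Bright snoRNAs had a median r of 0.17 with the RNA of their containing gene (44 pairs), beside 0.36 among themselves, and this difference was not tested. For all 82 pairs of a snoRNA and a measured containing gene, from 62 genes, the median r was 0.16, with 56 above 0 and 11 above 0.50. The highest was SNORD59A with ATP5F1B (0.71), followed by SNORD36B with RPL7A (0.67), SNORD42A with RPL23A (0.65) and SNORD45B with RABGGTB (0.65). SNORA36C and AAK1 were lowest, at -0.38. In 77 of 82 pairs the snoRNA had the larger SD, with a median of 0.19 against 0.09. The median r was 0.07 after repeated quantile normalization and 0.09 after cyclic loess. Of 11 non-coding hosts listed, GAS5 among them, only EPB41L4A-AS1 was measured as a single-symbol gene.

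The GAS5 gene gave 7 members, each a box C/D guide from a different intron, and they form a family with pairwise r from 0.51 to 0.94 and a median of 0.79 (0.75 within groups). SNORD44 had 10.88, 10.80, 10.58 and 10.98 in DMSO at 4 h and 10.32, 10.92, 10.72 and 11.12 in silymarin. At 8 h it had 10.83, 10.67, 10.50, 10.50 and 10.57 in DMSO and 11.00, 11.13 and 10.95 in silymarin. At 24 h it had 10.20, 10.35, 10.70, 10.61 and 10.60 in DMSO and 10.81, 10.41 and 10.63 in silymarin. The groups overlap at 4 h and 24 h, and at 8 h all 3 silymarin values lie above the 5 DMSO values. SNORD79 (r = 0.94 with SNORD44) had 10.33, 10.23, 9.89, 9.98 and 10.09 in DMSO and 10.54, 10.72 and 10.64 in silymarin at 8 h. In silymarin at 4 h, SNORD79 was 9.70 and 9.92 in replicates 1 and 3 and 10.51 and 10.59 in replicates 2 and 4, a spread wider than the difference at 8 h.

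**Figure D3:**
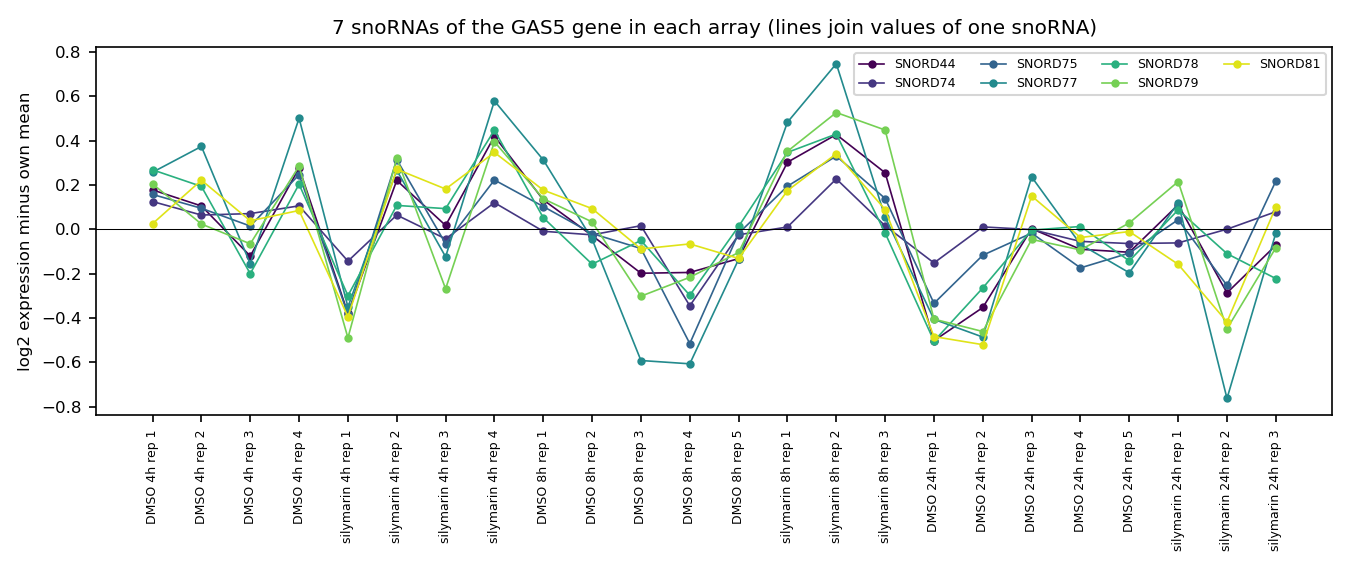
Log2 expression of the 7 snoRNAs of GAS5 on each of the 24 arrays, each minus its own mean; lines join the values of one snoRNA and carry no order in time. The 7 lie above their means together in the 3 silymarin arrays at 8 h, apart from SNORD78 in replicate 3, and below them in silymarin at 4 h replicate 1 and DMSO at 24 h replicates 1 and 2, apart from SNORD74 in the last.

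SNORD20 is a box C/D snoRNA of 80 bases within NCL, the nucleolin gene, which also holds SNORD82 (75 bases) and the box H/ACA member SNORA75 (137 bases). It was singled out with earlier results of these data known, so its levels are given as a description. In DMSO SNORD20 had 6.80, 6.85, 6.20 and 6.70 at 4 h, 6.37, 6.28, 5.55, 5.78 and 6.09 at 8 h, and 5.49, 5.73, 6.88, 6.53 and 6.29 at 24 h. In silymarin it had 5.62, 6.69, 6.17 and 6.58 at 4 h, 6.91, 6.77 and 6.35 at 8 h, and 6.18, 5.54 and 6.58 at 24 h. Values from 5.49 to 5.62 occurred in DMSO at 8 h and 24 h and in silymarin at 4 h and 24 h, and values from 6.85 to 6.91 in DMSO at 4 h and 24 h and silymarin at 8 h, so the groups overlap. In order of group means it was highest in silymarin at 8 h (6.68 ± 0.29, SD, n = 3) and DMSO at 4 h (6.64 ± 0.30, SD, n = 4). Silymarin at 4 h (6.27 ± 0.49, SD, n = 4), DMSO at 24 h (6.18 ± 0.57, SD, n = 5), silymarin at 24 h (6.10 ± 0.52, SD, n = 3) and DMSO at 8 h (6.02 ± 0.34, SD, n = 5) followed. Neighbours in this order differ by less than the larger of their 2 SDs, though sorting by mean keeps such steps small. The ends of the order, silymarin and DMSO at 8 h, differ by 0.66, more than either SD. That difference was not called by limma (adjusted p = 0.9914). SNORD20 ran from 5.62 to 6.91 on the arrays with high DDIT4 and from 5.49 to 6.85 on the others.

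SNORD20 followed the other snoRNAs of its gene and the snoRNAs in general. With SNORA75 r was 0.86 over 24 arrays (permutation adjusted p = 4e-05 over 4 relations, from p = 1e-05, the smallest that 100000 resamples can give; rho = 0.85). With SNORD82 r was 0.69 (adjusted p = 0.000293; rho = 0.59), and with the median of the other snoRNAs 0.71 (adjusted p = 0.000293; rho = 0.66). Without the 2 arrays farthest from the median of SNORD20, these were 0.88, 0.55 and 0.63, and within groups 0.89, 0.70 and 0.67. With NCL itself r was 0.47 (permutation adjusted p = 0.021; rho = 0.52). It was 0.42 within groups, and 0.23 there without the 2 farthest arrays. This last relation did not pass after repeated quantile normalization (r = 0.19, permutation adjusted p = 0.361) or cyclic loess (r = 0.32, permutation adjusted p = 0.125). NCL varied little, with an SD of 0.06. The 5 genes most like SNORD20 in Pearson r over 24 arrays, of all 18274, were SNORD77 (0.89), SNORD42A (0.88), SNORA75 (0.86) and the zinc finger genes ZNF253 (0.85) and ZNF726 (0.83).

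**Figure D4:**
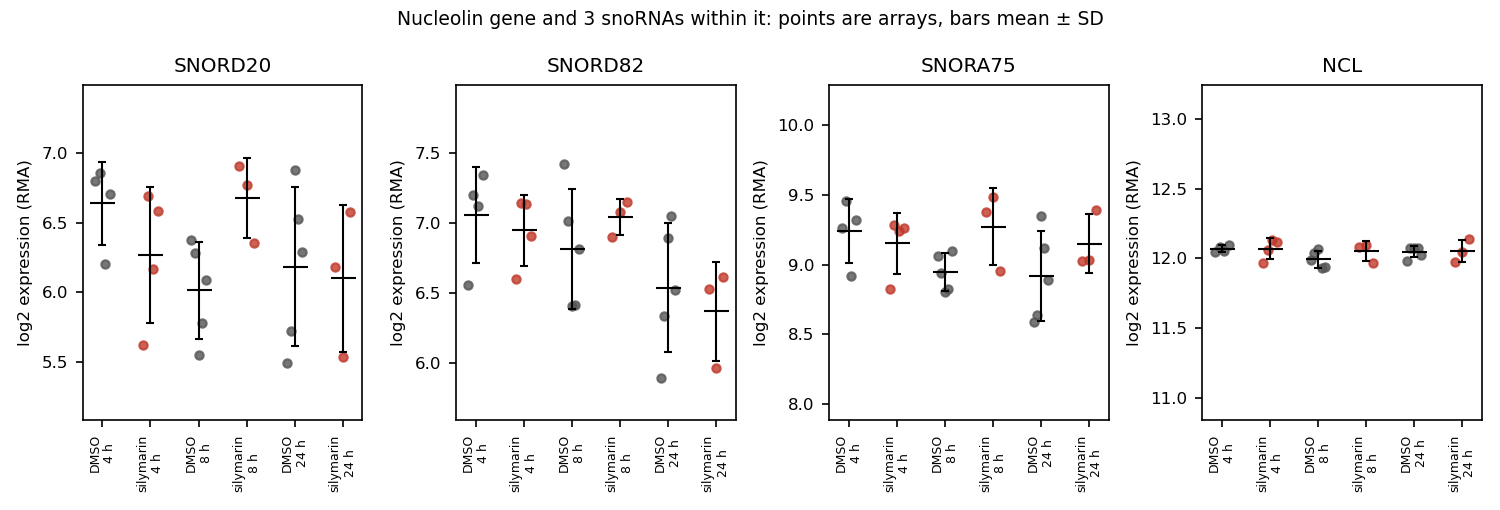
Log2 expression of SNORD20, SNORD82, SNORA75 and their containing gene NCL in the 6 groups; points are arrays (grey DMSO, red silymarin), bars are mean and SD, and every panel spans the same log2 range. The 3 snoRNAs scatter widely within groups, with SDs over 24 arrays of 0.46, 0.41 and 0.25, while NCL stays between 11.93 and 12.14.

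The silymarin comparison at 4 h showed no snoRNA that differed beyond the spread between arrays. limma called 0 of 176 members, and 0% of all genes were called, at a Benjamini-Hochberg adjusted p under 0.05, and the smallest adjusted p of a member was 0.9999. At an unadjusted p under 0.05 it also found 0 members, against 1.05% of genes higher and 1.43% lower. The median difference was -0.01, with 76 of 176 members (43.2%) above 0 against 47.5% of all genes. The 4 members with the smallest p were SNORD116-26 (-0.15, SE 0.08), SNORA15 (0.21, SE 0.10), SNORD114-3 (-0.17, SE 0.09) and SNORA60 (0.15, SE 0.09). SNORD116-26 and SNORA70G were the 2 members with all silymarin below all DMSO arrays (1.14%, against 1.55% of genes). SNORD20 differed by -0.37 (SE 0.28), and by -0.16 without silymarin replicate 1. The members above 0 numbered 64 without silymarin replicate 4 and 96 without silymarin replicate 1, where the median turned to 0.01.

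At 8 h more snoRNAs lay above 0 in silymarin than genes at large, without any call. limma again called 0 members and 0% of all genes (smallest Benjamini-Hochberg adjusted p of a member 0.9914). The median difference was 0.07, against -0.02 over all genes, and 124 of 176 members (70.5%) lay above 0, against 42.0% of genes. By class these were 59 of 69 box C/D (median 0.15), 46 of 61 box H/ACA (0.08) and 19 of 46 cluster snoRNAs (-0.04). At an unadjusted p under 0.05, 21 members were higher (11.9%, against 1.56% of genes) and 1 lower (0.568%, against 2.37%). Of the 21 higher members 9 were bright. The 21 became 8 when either DMSO replicate 4 or silymarin replicate 2 was left out, 11 without silymarin replicate 1, and 12 without DMSO replicate 3. DMSO replicate 4 and silymarin replicate 2 are the arrays with the low and high common snoRNA level given above. Without silymarin replicate 2, 106 members lay above 0, the lowest count, with medians of 0.07 for box C/D, 0.02 for box H/ACA and 0.03 over all members. Without DMSO replicate 1 there were 133, the highest. Since members move together from array to array, these counts are not of independent observations, and fewer cells holding an RNA cannot be told apart from less RNA per cell in such bulk samples.

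Among the 21 members, 6 came from GAS5. Of the 7 GAS5 members, 1 lay above 0 in silymarin against DMSO at 4 h (median -0.09) and 6 at 24 h (0.09). In DMSO alone, 0 of the 7 lay above 0 at 8 h against 4 h (median -0.20) and 0 at 24 h against 4 h (-0.30). In silymarin against DMSO at 8 h all 7 lay above 0, with a median of 0.34 (0.27 without silymarin replicate 2). SNORD79 differed by 0.53 (SE 0.17; 95% confidence interval 0.18 to 0.89), SNORD44 by 0.41 (SE 0.14) and SNORD77 by 0.64 (SE 0.24). SNORD50A, of the non-coding host SNHG5, had 9.996, 9.70, 9.78, 9.48 and 9.84 in DMSO and 10.06, 10.20 and 10.09 in silymarin, a difference of 0.35 (SE 0.13). SNORA2B, of KANSL2, had the smallest p of the members, with 5.61, 5.74, 5.51, 5.31 and 5.53 in DMSO and 6.15, 6.18 and 5.63 in silymarin, a difference of 0.45 (SE 0.14). Its groups overlap through silymarin replicate 3, and without that array the difference was 0.62. SNORD20 differed by 0.66 (SE 0.29; 95% confidence interval 0.07 to 1.25). All 3 silymarin arrays lay above all 5 DMSO arrays for 10 members (5.68%, against 0.947% of genes): SNORD28, SNORD44, SNORD50A, SNORD75, SNORD79, SNORA30, SNORA69, SNORD115-44, SNORD116-1 and SNORD116-20. The reverse held for SNORD116-24 alone (0.568%, against 1.99%). Each of these members had limma's adjusted p at or above 0.9914, and 5 of the 10 were bright.

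At 24 h the snoRNAs lay close to genes at large. limma called 0 members and 0% of all genes, with a smallest Benjamini-Hochberg adjusted p of 0.9997 among members. The median was 0.01 for both, and 101 of 176 members (57.4%) lay above 0, against 56.0% of genes. The count was 80 without DMSO replicate 1, where the median was -0.02, and 121 without DMSO replicate 3, where it was 0.04. At an unadjusted p under 0.05, 4 were higher (2.27%, against 2.11%) and 2 lower (1.14%, against 0.914%). Those with the smallest p were mostly dim. SNORD114-26 had 4.07, 4.22, 3.94, 4.05 and 4.04 in DMSO and 4.37, 4.53 and 4.28 in silymarin, with no overlap and a difference of 0.33 (SE 0.08; 95% confidence interval 0.16 to 0.50). Its log2 level of 4.16 over all arrays is at the 3.32th percentile of gene means. SNORD114-6 of the same cluster differed by 0.24 (SE 0.08), and SNORA35 by 0.21 (SE 0.09). SNORD13P1 had the lowest difference of all 18274 genes, -0.59 (SE 0.25), from 2.82, 4.42, 3.37, 3.48 and 2.63 in DMSO and 2.69, 2.65 and 2.92 in silymarin. The groups overlap, and without DMSO replicate 2 the difference was -0.32. Silymarin lay above DMSO on every array for 4 members (2.27%, against 1.18% of genes) and below for 0 (against 0.772%). SNORD20 differed by -0.08, with a range of -0.32 to 0.20 when each array was left out in turn.

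**Figure D5:**
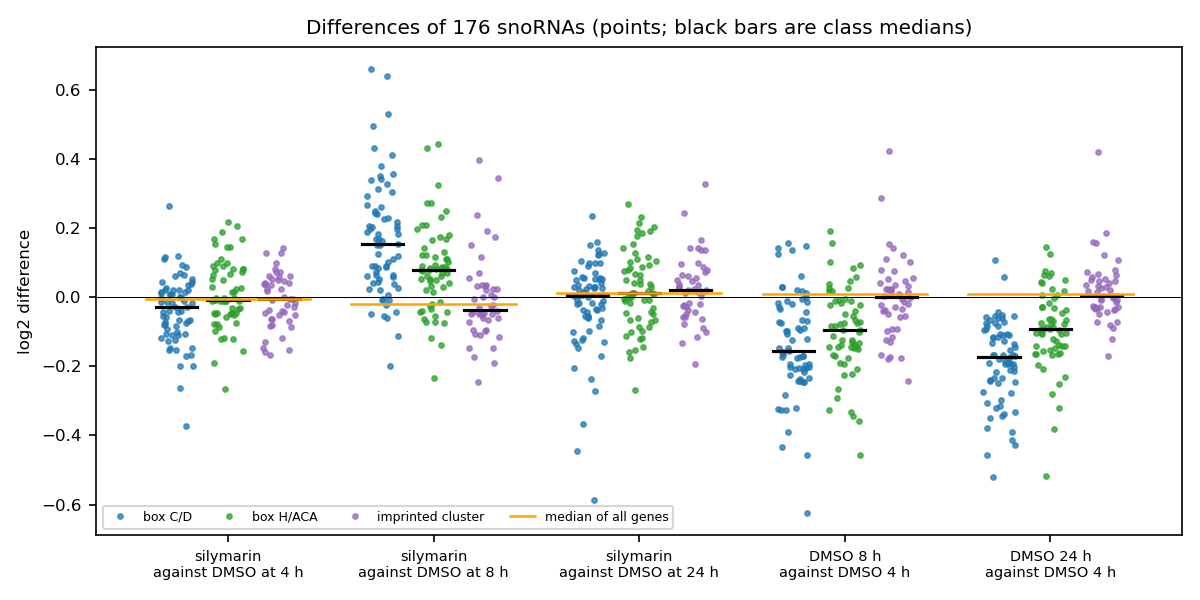
Log2 differences of the 176 snoRNAs (points) in 5 comparisons, by class; black bars are class medians and orange lines the median of all genes. At 8 h the box C/D median is 0.15 and at 4 h -0.03 and 24 h 0.01, and in both DMSO comparisons the box C/D median lies below 0, at -0.15 and -0.17, while cluster snoRNAs stay near 0.

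The solvent arrays alone gave differences of the same size over time. These comparisons share the DMSO arrays with the silymarin comparisons. DMSO at 8 h against DMSO at 4 h had 0 members and 0% of genes called by limma (smallest Benjamini-Hochberg adjusted p of a member 0.7393), and 47 of 176 members (26.7%) above 0, against 53.5% of genes. The median was -0.09 over members and 0.01 over genes. At an unadjusted p under 0.05, 15 members were lower (8.52%, against 2.11% of genes) and 3 higher (1.70%, against 4.39%). Most of them were dim: 2 of the 15 and 0 of the 3 were bright. The 15 became 5 without DMSO at 8 h replicate 4, 6 and 9 without DMSO at 4 h replicates 2 and 4, and 23 without DMSO at 8 h replicate 1. SNORD116-1 differed by -0.24 (SE 0.07), SNORD116-18 by -0.17 (SE 0.06), SNORD38A by -0.33 (SE 0.12) and SNORA2B by -0.33 (SE 0.13). SNORD20 differed by -0.62 (SE 0.26). For 5 members every 8 h array lay below every 4 h array (2.84%, against 0.826%), and for 0 the reverse (against 1.41%).

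DMSO at 24 h against DMSO at 4 h had 0 members and 0% of genes called by limma (smallest Benjamini-Hochberg adjusted p of a member 0.9999). Only 39 of 176 members (22.2%) lay above 0, against 55.1% of genes, and 2 of 69 box C/D members did. The count over all members ran from 35 to 46 when each array was left out. At an unadjusted p under 0.05, 12 were lower (6.82%, against 0.547% of genes) and 2 higher (1.14%, against 1.15%). Of the 12 lower members 10 were bright, and of the 2 higher members 0 were. The 12 became 3 without DMSO at 24 h replicate 1 and also 3 without DMSO at 4 h replicate 4, and 7 without DMSO at 4 h replicate 2. They became 28 and 23 without DMSO at 24 h replicates 3 and 4. SNORD117 had 7.30, 7.47, 7.46 and 7.46 at 4 h and 6.68, 6.78, 7.33, 7.18 and 7.09 at 24 h, a difference of -0.41 (SE 0.14), with overlap through replicate 3 at 24 h. SNORD52 differed by -0.33 (SE 0.11), SNORD44 by -0.32 (SE 0.13) and SNORD49A by -0.39 (SE 0.16). For 5 members all 24 h arrays lay below all 4 h arrays (2.84%, against 0.246%), and SNORA5B alone was above (0.568%, against 0.399%).

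The change of the silymarin difference between times was tested as an interaction. limma called 0 members and 0% of genes in each of the 3 tests (smallest Benjamini-Hochberg adjusted p of a member 0.9998, 0.9503 and 0.9999 for 8 h minus 4 h, 24 h minus 8 h and 24 h minus 4 h). From 4 h to 8 h, 8 members were higher at an unadjusted p under 0.05 (4.55%, against 0.821% of genes) and 0 lower (against 1.55%). SNORD20 had the largest estimate of all 18274 genes, 1.03 (SE 0.40; limma's unadjusted p = 0.01607), with 0.82 when silymarin at 4 h replicate 1 was left out. SNORD79 had 0.66 (SE 0.24), SNORD77 0.79 (SE 0.33) and SNORD116-23 0.31 (SE 0.13). From 8 h to 24 h, 4 members were higher (2.27%, against 2.79%) and 6 lower (3.41%, against 1.29%), led by SNORD114-26 (0.48, SE 0.12) and SNORD59A (-0.86, SE 0.29). From 4 h to 24 h, 1 member was higher, SNORD114-26 (0.26, SE 0.12; 0.568%, against 2.32%), and 1 lower, SNORD13P1 (-0.85, SE 0.35; 0.568%, against 0.695%). Estimates above 0 made up 65.9%, 38.1% and 56.2% of members in these 3 tests, against 47.1%, 59.3% and 54.9% of genes. In the F-test over the 6 groups limma called 0 members and 0% of genes, with a smallest adjusted p of 0.6743 among members, and 16 had an unadjusted p under 0.05 (9.09%, against 7.20% of genes).

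The proteins that build snoRNA particles were also not called in any of these comparisons. Of the box C/D core, FBL (fibrillarin, the methyltransferase), NOP58 and RRP9 were measured, with mean log2 levels of 11.79, 11.20 and 10.06. At 8 h they differed by 0.09 (SE 0.05), 0.15 (SE 0.08) and 0.20 (SE 0.07). RRP9, a protein of the U3 particle, had a silymarin mean of 10.17 ± 0.07 (SD, n = 3) against a DMSO mean of 9.97 ± 0.07 (SD, n = 5), with limma's adjusted p = 0.9914. Of the box H/ACA core, DKC1 (dyskerin, the pseudouridine synthase), NHP2, NOP10 and GAR1 differed by 0.10 (SE 0.11), 0.09 (SE 0.06), 0.04 (SE 0.07) and -0.05 (SE 0.09). Of 15 assembly and trafficking factors 10 lay above 0 at 8 h (median 0.01), and of 7 intron and end processing factors 4 (median 0.06). In DMSO at 8 h against 4 h, 0 of these 29 genes lay above 0, against 53.5% of all genes and 39.6% of genes above the signal threshold, with NOP58 at -0.16 (SE 0.07) and NHP2 at -0.12 (SE 0.06). In DMSO at 24 h against 4 h the picture was mixed. Above 0 lay 0 of 3 box C/D core, 2 of 4 box H/ACA core, 7 of 15 assembly and trafficking, and 3 of 7 processing genes. In the silymarin comparison at 8 h the 16 small Cajal body RNAs had 8 members above 0 and a median of -0.01. The 62 measured containing genes had 29 above 0 and a median of -0.01, where the snoRNAs had 0.07.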

How the data were processed

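RNA from 24 samples was measured on Human Gene 1.0 ST arrays of Affymetrix. The deposited values are on a log2 scale; RMA and the oligo package are named in the submitters' processing notes, without versions. RMA includes quantile normalization, so a shift common to all genes of an array is taken out. The genome build is not given in the sources used here. The values were used as deposited. Of 28869 probe sets, 19302 had 1 gene symbol in the platform annotation, 1729 several and 7838 were not listed; the highest-mean probe set was kept for each of 18274 genes. The snoRNAs had 179 such probe sets, and 2 genes had more than 1.

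All genes and arrays entered a single limma 3.58.1 model (R 4.3.3) of 6 group means, with 18 residual and 5.04 prior degrees of freedom. Tests were two-sided, adjusted by Benjamini-Hochberg over all genes, at 0.05. Correlations and figures used Python 3.11.15, scipy 1.17.1 and matplotlib 3.10.9. A containing gene is the shortest gene of the RefSeq table whose span includes the snoRNA; the table gives no strand, so the gene may lie on the other strand. All 176 members were found in that table. The scripts were tested on simulated data. The number of arrays limits the precision.

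The members, gene lists and rules were chosen with earlier results of these data known. Named genes were SNORD20 and its neighbours in NCL, the 8 brightest, 5 dimmest and 10 most variable members, the 4 with the smallest p in each comparison, the closest pairs, the cluster members at the ends of their range, and particle proteins. Those of the 4 tightest or loosest families, of GAS5, and of short lists without overlap were named after their values were seen. Alternatives were re-centred arrays, repeated quantile normalization, cyclic loess, other probe set rules, a filter on dim genes, other variance models, array weights, the replicate number as a block, stricter thresholds and leaving out each array.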

Additional observations from a re-analysis of the deposited data

Results flagged for a closer look

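Gaps within groups of 4 or 5 arrays were looked for in 45 named snoRNAs, in 180 combinations of snoRNA and group, and 11 values on 7 arrays stood apart. Chance alone would flag about 1 in 20 groups, or about 9 of 180, if the groups were independent and unselected. These snoRNAs were chosen in part by their values and many move together, so the 11 cannot be judged against that number. DMSO at 4 h replicate 1 held 4 of them, each the lowest of its group: SNORD33 at 12.30 (nearest other array 12.75), SNORD13 at 12.03 (12.64), SNORD13P3 at 11.85 (12.48) and SNORD117 at 7.30 (7.46). SNORD13 and SNORD13P3 may read the same RNA, so they count as 1 observation. DMSO at 8 h replicate 4 was lowest for SNORD14E at 7.69 (nearest 8.99) and SNORD74 at 11.12 (11.44). SNORA75 in silymarin at 4 h replicate 1 was 8.82 (nearest 9.24), and SNORD78 in DMSO at 4 h replicate 3 was 10.36 (10.76). The others were dim cluster members: SNORD115-8 at 2.37 in DMSO at 24 h replicate 3 (2.56), and SNORD116-1 at 3.21 in silymarin at 4 h replicate 2 (3.399) and at 3.50 in DMSO at 24 h replicate 2 (3.31).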

How the results depend on the processing

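The count of called snoRNAs was 0 in each of 9 comparisons, and it was 0 in all 331 alternatives tried, over 37 settings; the fit with only the groups compared was not run for the F-test, nor was the fold minimum. Whether replicate numbers pair the arrays was not settled. Deviations of same-numbered arrays correlated from -0.492 to 0.426, with no differently numbered arrays set beside them. With the replicate block the count was again 0 in every comparison, as it was without it. The median pairwise correlation of 0.13 was 0.17 after cyclic loess and 0.11 to 0.14 without single arrays. That of snoRNA and containing gene, 0.16, was 0.0737 after repeated quantile normalization, 0.0884 after cyclic loess and 0.15 to 0.21 without single arrays. The relation of SNORD20 with NCL did not pass after repeated quantile normalization (r = 0.19) or cyclic loess (0.32), and was 0.43 to 0.54 without single arrays. The cause was not tested for any of these. The relations with SNORD82 (0.63 to 0.75), SNORA75 (0.84 to 0.90) and the median of the other snoRNAs (0.66 to 0.77) passed in every setting tried. Members above 0, an alternative added after seeing the data, ran from 64 to 96 at 4 h, 106 to 133 at 8 h, 80 to 121 at 24 h, 33 to 60 for DMSO at 8 h and 35 to 46 for DMSO at 24 h without single arrays. Members at an unadjusted p under 0.05, also added, ran from 8 to 26 (higher, silymarin at 8 h), 5 to 23 (lower, DMSO at 8 h) and 3 to 28 (lower, DMSO at 24 h). The last 3 counts moved by over 1.5 times with single arrays. With 3 to 5 arrays a group, the median standard error of a single snoRNA's difference in the silymarin comparisons was 0.12, against 0.09 for all genes.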
